A study of Mus musculus with 6 samples.

Results

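The genes described here are 34 genes of DNA replication and S phase, taken by gene symbol from a list that names origin licensing factors, the replicative helicase, polymerases with their clamp and clamp loader, enzymes of deoxynucleotide supply, G1/S regulators and replication-linked chromatin factors. Of the 34, 32 had at least 1 feature named for them in the platform annotation and a ratio, and all 32 could be tested, out of 10088 genes tested in all. Cdt1 and E2f2 had no feature under their symbols and were not analysed here. The list was made by gene function and not by a cut on measured values, but with earlier results of these data known.

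RNA came from RAW 264.7 cells, a mouse macrophage line. Treated cells had received lipopolysaccharide (LPS, 100 ng/ml), the Gram-negative cell wall component sensed through Toll-like receptor 4, together with LPS-binding protein (100 pM), which passes LPS to CD14, and untreated cells had received neither. Both were cultured for 8 h. Treated and untreated RNA were hybridised against each other on 6 2-colour arrays, with treated RNA in Cy5 and untreated RNA in Cy3 on 3 arrays and the dyes exchanged on the other 3, in 3 numbered sets of 1 array of each orientation. Every value is a log2 ratio of treated over untreated RNA on 1 array, so that -1 stands for 2-fold lower in treated cells.

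Before S phase, the origin recognition complex, Cdc6 and Cdt1 load the ring-shaped Mcm2-7 helicase onto DNA, and geminin keeps Cdt1 from loading it again. At the G1/S boundary, cyclin E with Cdk2 and the E2F transcription factors switch on the genes of the replication machinery, and the helicase is turned on with Cdc45 and Mcm10. Macrophage growth factors drive this programme in dividing macrophages, and activation of macrophages by LPS is known to slow their proliferation.

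Nothing in the table names the numerator dye of the ratios. Arrays of opposite dye orientation correlated at r of -0.8 to -0.428 over features as deposited, and arrays of the same orientation at 0.705 to 0.899. Cy5 was taken as the numerator, since in the labels Cy3 is named control and Cy5 test. The direction is therefore likely but not settled, and all signs would turn under the opposite reading. The table holds ratios and no levels, so the macrophage label could not be checked by level. Of 8 macrophage markers 7 had a ratio, of which 5 were higher and 1 was lower in treated cells. In bulk RNA, a smaller share of cells in S phase and less of these transcripts per cell cannot be told apart. Whether the 3 sets came from separate cultures is not stated, so p-values reflect only how far these sets differed, and that spread may be technical.

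Transcripts of the replication machinery were lower in LPS-treated cells. Of the 32 genes tested, 27 fell and 0 rose when the 3 set means were tested with limma (adjusted p under 0.05), with the same 27 and 0 at an unadjusted p under 0.05. That is 84.4% of these genes lower, beside 16.8% of all 10088 genes lower and 17.4% higher. The median log2 ratio was -0.44 for the 32 genes and -0.01 for all genes. It was -0.49, -0.42 and -0.43 in sets 1, 2 and 3, and from -0.51 to -0.40 on single arrays. Of 191 single values, 176 were below 0.

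The falls were moderate in size. Among the 27 genes they ran from 1.15-fold for Rfc3 to 2.85-fold for Tk1, with 9 genes at 1.5-fold or more and 2 beyond 2-fold. The median of the 27 was -0.55, beside -0.32 for all 1698 genes that fell. The 27 genes had a median SD of 0.08 over set means, and in 23 of them all 6 arrays were below 0. Of the other 4, Pcna was below 0 on the 5 arrays that measured it, while Ccne2, Chek1 and Hells were each above 0 on the same array, that of set 2 with treated RNA in Cy3. That array had the fewest of the 32 genes below 0, at 27, beside 29 to 31 on the other arrays, and 9 genes had their highest value there. The G1/S regulators had a median of 0.10 on it, and from -0.53 to -0.26 on the other arrays. Without set 2, 26 of 31 members were called lower. Leaving out set 3 lowered the counts over all genes to 945 lower and 1097 higher of 9546, whereas 24 of 31 members were still called lower.

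**Figure D1:**
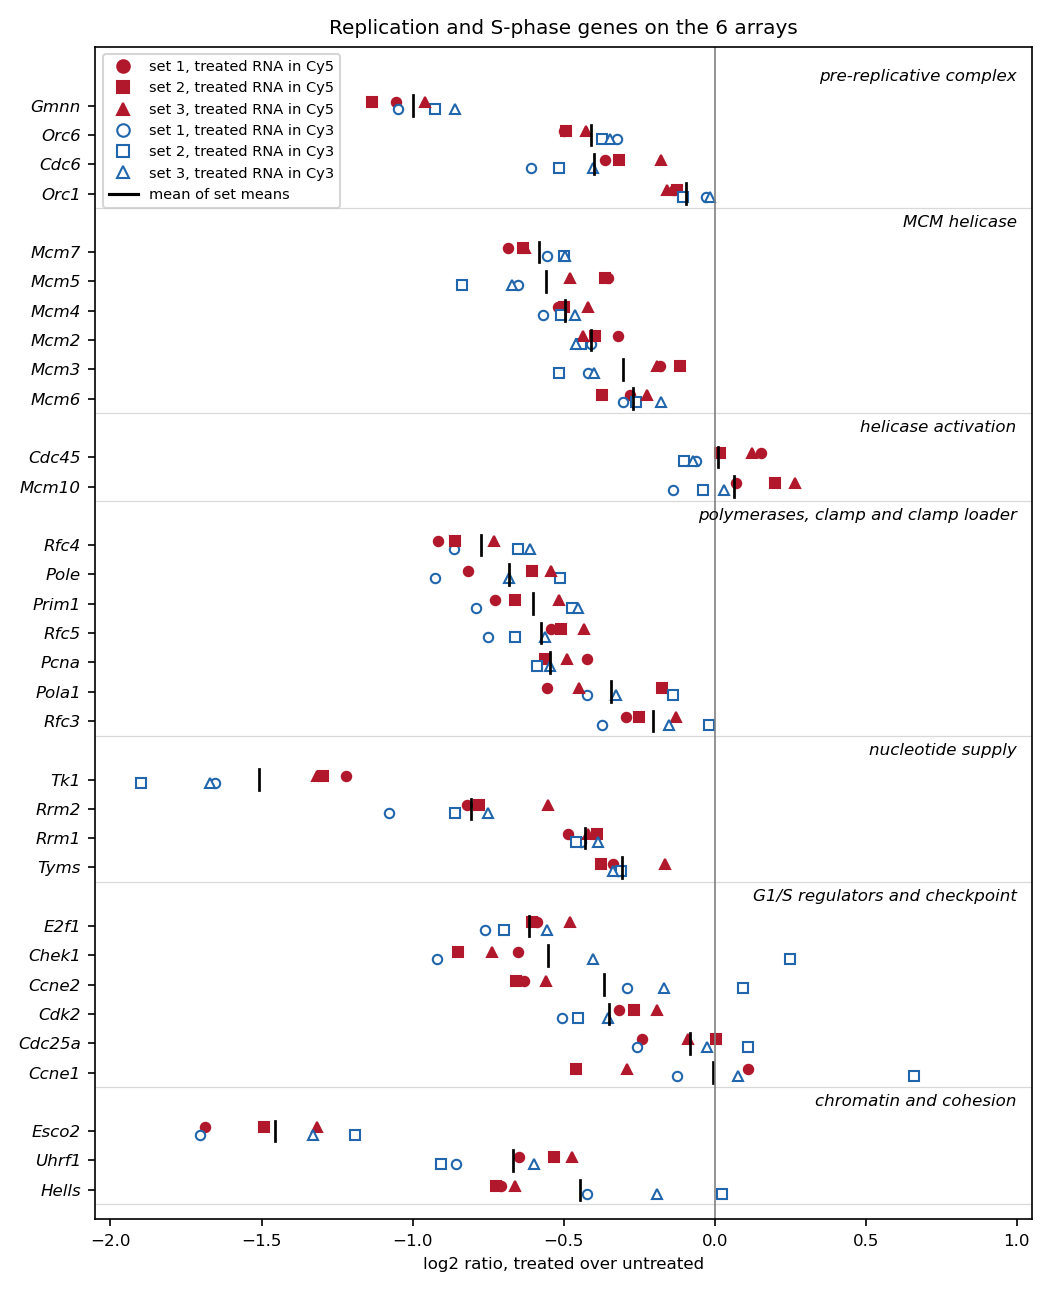
Log2 ratio of treated over untreated RNA (x axis) on each array for the 32 genes (rows, ordered within each role by their mean), with sets 1, 2 and 3 as circles, squares and triangles, treated RNA in Cy5 filled and in Cy3 open, and the mean of the set means as a bar. Tk1 and Esco2 lie furthest to the left at means of -1.51 and -1.45, and the rows of Mcm10, Cdc45, Ccne1 and Cdc25a straddle 0.

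The promoters of the genes were read for words known from cell cycle promoters. A window of 250 bases before to 50 bases after the gene start was given by RefSeq (build GRCm38.p6) for 29 of the 34 genes, in 32 windows, the others being Gmnn, Pole, Ccne2, Mcm4 and Esco2. An E2F word (TTTCCCGC, TTTGGCGC, TTTCGCGC or TTTGCCGC, on either strand, overlaps allowed) was present in 14 of the 32 windows, or 43.8%. The share was 2.26% among all 32851 RefSeq windows, which cover 27025 genes and not only those tested here. CCAAT, the word bound by NF-Y, was present on either strand in 68.8% of the windows and in 37.4% of all windows. Windows were not matched for base composition. Among windows of the genes that fell, 10 of 24 held an E2F word (41.7%). So did 2 of the 5 windows of genes that did not pass (40.0%), those of Cdc25a and Orc1. The genes were listed by function, so their shares beside all windows describe that list. A link of the words to the falls was not tested. The windows below include Tk1 and Rrm2, which had the largest falls among genes with a window, and Cdc25a and Orc1. Mcm6 was added after its words were seen because it held 3 of them. Windows of Mcm10, Cdc45 and Ccne1, which did not pass and held no E2F word, are not printed. The printed windows therefore do not show how E2F words go with the falls. Capitals mark E2F words and CCAAT, which reads ATTGG on the opposite strand.
Tk1, chr11:117825965-117826264, minus strand, log2 ratio -1.51, no word of either kind: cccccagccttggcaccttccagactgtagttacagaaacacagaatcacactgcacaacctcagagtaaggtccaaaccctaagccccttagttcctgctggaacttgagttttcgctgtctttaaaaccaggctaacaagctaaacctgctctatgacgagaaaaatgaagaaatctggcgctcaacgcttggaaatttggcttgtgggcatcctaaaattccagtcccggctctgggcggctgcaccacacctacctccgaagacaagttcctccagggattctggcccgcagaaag
Rrm2, chr12:24708004-24708303, plus strand, log2 ratio -0.81, 1 CCAAT and no E2F word: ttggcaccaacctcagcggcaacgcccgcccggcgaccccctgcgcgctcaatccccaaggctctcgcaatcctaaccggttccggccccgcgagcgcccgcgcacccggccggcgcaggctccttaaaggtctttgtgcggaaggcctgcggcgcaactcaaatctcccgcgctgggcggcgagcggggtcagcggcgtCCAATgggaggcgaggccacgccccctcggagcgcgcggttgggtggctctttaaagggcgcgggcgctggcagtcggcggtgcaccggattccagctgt
Mcm6, chr1:128359656-128359955, minus strand, log2 ratio -0.27, 3 E2F words, of which a pair overlaps, and 2 CCAAT: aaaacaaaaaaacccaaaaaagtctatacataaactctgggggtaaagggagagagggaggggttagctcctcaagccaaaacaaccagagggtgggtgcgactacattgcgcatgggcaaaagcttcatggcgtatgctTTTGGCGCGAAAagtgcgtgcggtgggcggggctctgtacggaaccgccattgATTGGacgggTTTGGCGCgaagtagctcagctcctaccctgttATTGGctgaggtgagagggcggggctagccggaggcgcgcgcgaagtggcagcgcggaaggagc
Cdc25a, chr9:109875329-109875628, plus strand, log2 ratio -0.08, 1 E2F word that starts 67 bases before the gene start and 2 CCAAT: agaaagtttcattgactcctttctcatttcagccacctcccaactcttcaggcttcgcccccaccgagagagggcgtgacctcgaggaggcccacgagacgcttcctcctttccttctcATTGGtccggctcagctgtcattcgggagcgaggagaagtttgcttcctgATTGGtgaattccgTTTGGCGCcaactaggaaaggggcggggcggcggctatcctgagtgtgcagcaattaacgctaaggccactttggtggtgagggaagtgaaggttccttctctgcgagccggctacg
Orc1, chr4:108579204-108579503, plus strand, log2 ratio -0.09, 1 E2F word that starts 27 bases before the gene start and 2 CCAAT: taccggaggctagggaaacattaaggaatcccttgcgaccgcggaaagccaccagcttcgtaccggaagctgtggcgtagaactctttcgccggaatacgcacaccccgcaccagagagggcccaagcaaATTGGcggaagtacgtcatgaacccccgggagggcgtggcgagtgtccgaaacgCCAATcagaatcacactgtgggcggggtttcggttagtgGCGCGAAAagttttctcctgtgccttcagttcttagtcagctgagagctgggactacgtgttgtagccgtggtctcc

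Among the licensing factors, 3 of 4 tested genes fell. Gmnn, which encodes the Cdt1 inhibitor geminin, had log2 ratios of -1.06, -1.13 and -0.96 with treated RNA in Cy5 (sets 1 to 3) and -1.05, -0.93 and -0.86 with treated RNA in Cy3. All 6 arrays were thus close to 2-fold lower, and the mean was -0.997 ± 0.076 (SD, n = 3 sets; limma's adjusted p = 5.76e-05). Its 2 features gave means of -0.94 and -1.06. Cdc6, the ATPase that loads the helicase, had -0.36, -0.32 and -0.18 in Cy5 and -0.61, -0.52 and -0.40 in Cy3. Its Cy3 values were all below its Cy5 values, and the mean was -0.40 ± 0.10 (adjusted p = 0.00267), with 2 features at -0.41 and -0.39. Orc6, the smallest subunit of the origin recognition complex, stood at -0.41 ± 0.02 (adjusted p = 0.00103), with single values from -0.50 to -0.32. Orc1, an ATPase subunit of that complex, was below 0 on 6 of 6 arrays but only at -0.16 to -0.01. Its mean of -0.09 ± 0.02 did not pass (limma's adjusted p = 0.155, 95% interval -0.20 to 0.01).

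All 6 genes of the Mcm2-7 helicase fell, between 1.21-fold and 1.5-fold. Mcm7 had log2 ratios of -0.68, -0.64 and -0.63 in Cy5 and -0.56, -0.50 and -0.49 in Cy3, for a mean of -0.58 ± 0.03 (adjusted p = 0.000276). Mcm5 followed at -0.56 ± 0.05 (adjusted p = 0.000384), with -0.35, -0.36 and -0.48 in Cy5 and -0.65, -0.84 and -0.67 in Cy3. These orientations did not overlap for either gene, and they lay in opposite order. Mcm4 stood at -0.50 ± 0.05 and Mcm2 at -0.41 ± 0.04, and their orientations overlapped. Mcm6 had the smallest fall of the helicase genes, with -0.28, -0.37 and -0.22 in Cy5 and -0.30, -0.26 and -0.18 in Cy3 (mean -0.27 ± 0.06, adjusted p = 0.00713). Mcm7 was lower than Mcm6 on 6 of 6 arrays, and the log2 ratio of Mcm7 minus that of Mcm6 was -0.31 ± 0.06 (SD, n = 3 sets), a difference picked out after the values were seen and not tested.

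Mcm3 had features that differed. The feature measured on all 6 arrays gave -0.18, -0.12 and -0.19 in Cy5 and -0.42, -0.51 and -0.40 in Cy3, and this set the gene's value of -0.30 ± 0.01 (adjusted p = 0.00306). The other feature was listed at 0 on 1 array and ran from -0.30 to 0.27 on the other 5. With both features averaged the gene stood at -0.17 (adjusted p = 0.0763), and from its Cy5 values alone at -0.16 (adjusted p = 0.0736).

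Mcm10 and Cdc45, the members that act in turning the loaded helicase on, did not pass. Mcm10, which binds the helicase as forks start, had 0.07, 0.20 and 0.26 in Cy5 and -0.14, -0.04 and 0.03 in Cy3. Sets 1 and 2 lay above 0 in Cy5 and below 0 in Cy3, and set 3 lay above 0 in both (mean 0.07 ± 0.09, adjusted p = 0.397; 95% interval -0.07 to 0.20). Cdc45, a subunit of the active helicase, had a mean of 0.01 ± 0.05 (adjusted p = 0.898). That mean joined features that moved in opposite directions. One had ratios from -0.69 to -0.08 (mean -0.40 ± 0.10, adjusted p = 0.00312 among 14343 features) and the other from 0.30 to 0.56 (mean 0.42 ± 0.12, adjusted p = 0.00325). Each was on its own side of 0 on 6 of 6 arrays, and which of them reports the transcript was not tested.

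**Figure D2:**
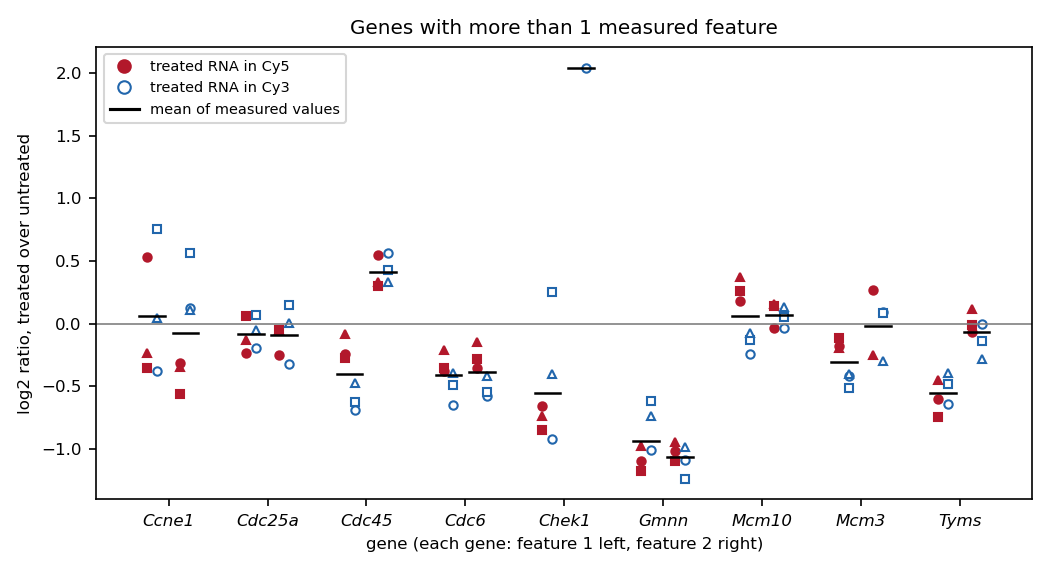
Log2 ratio of treated over untreated RNA (y axis) for the 9 genes with more than 1 measured feature, feature 1 left and feature 2 right, with treated RNA in Cy5 filled and in Cy3 open, marker shapes for sets 1, 2 and 3 as circles, squares and triangles, and a bar at the mean of the measured values. The features of Cdc6 and Gmnn lie together, those of Cdc45 lie on opposite sides of 0 at means of -0.40 and 0.42, and those of Tyms at -0.55 and -0.06.

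The polymerases, the clamp and its loader fell in 7 of 7 cases. Rfc4, a subunit of the clamp loader replication factor C, had -0.91, -0.86 and -0.73 in Cy5 and -0.86, -0.65 and -0.61 in Cy3, for a mean of -0.77 ± 0.11 (adjusted p = 0.000245). Rfc5, another subunit, stood at -0.58 ± 0.07 (adjusted p = 0.000455). Rfc3, the third subunit measured here, had -0.29, -0.25 and -0.13 in Cy5 and -0.37, -0.02 and -0.15 in Cy3. Its mean of -0.20 ± 0.11 passed narrowly (adjusted p = 0.0407). Without set 1 that p was 0.106, and without set 3 it was 0.109. Rfc4 was lower than Rfc3 on 6 of 6 arrays, with a difference of -0.57 ± 0.05 (Rfc4 minus Rfc3), again a pair chosen after the values were seen.

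Pole, the catalytic subunit of leading strand polymerase epsilon, had -0.82, -0.60 and -0.54 in Cy5 and -0.93, -0.51 and -0.68 in Cy3 (mean -0.68 ± 0.17, adjusted p = 0.000963). Set 1 held the lowest value in each orientation. Prim1, the primase subunit that makes RNA primers, stood at -0.60 ± 0.14 (adjusted p = 0.00103), with single values from -0.79 to -0.45. Pola1, which extends those primers, had -0.56, -0.17 and -0.45 in Cy5 and -0.42, -0.14 and -0.33 in Cy3. Set 2 stood nearest to 0 in both orientations. The mean of Pola1 was -0.34 ± 0.17 (adjusted p = 0.0138), which did not pass without set 3 (adjusted p = 0.073). Pcna, the sliding clamp, was listed at 0 on the Cy3 array of set 1, which was left out together with its set. Its other values were -0.42, -0.56 and -0.49 in Cy5 and -0.59 and -0.55 in Cy3, and the mean over sets 2 and 3 was -0.55 ± 0.04 (SD, n = 2 sets; adjusted p = 0.00228).

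Genes of deoxynucleotide supply fell in 4 of 4 cases and included the lowest of the 32. Tk1, the S-phase thymidine kinase of the salvage pathway, had log2 ratios of -1.22, -1.30 and -1.32 in Cy5 and -1.66, -1.90 and -1.67 in Cy3. The orientations did not overlap, and the mean was -1.51 ± 0.08, or 2.85-fold lower (adjusted p = 1.31e-05), the fifth lowest of the 10088 genes. Rrm2, the small subunit of ribonucleotide reductase that is made in S phase, had -0.82, -0.78 and -0.55 in Cy5 and -1.08, -0.86 and -0.75 in Cy3 (mean -0.81 ± 0.15, adjusted p = 0.00038). Rrm1, the large subunit, had a narrower range of -0.49 to -0.39 (mean -0.43 ± 0.03, adjusted p = 0.000904). Rrm2 was lower than Rrm1 on 6 of 6 arrays, with a difference of -0.38 ± 0.12 (Rrm2 minus Rrm1), a pair chosen after the values were seen. Tyms, the thymidylate synthase, stood at -0.31 ± 0.05 (adjusted p = 0.00376), as the mean of a feature at -0.55 ± 0.11 (adjusted p = 0.000929) and a feature at -0.06 ± 0.02 (adjusted p = 0.363).

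Of the G1/S regulators and the checkpoint kinase, 4 of 6 fell. E2f1, an activating E2F transcription factor, had -0.59, -0.60 and -0.48 in Cy5 and -0.76, -0.70 and -0.56 in Cy3, for a mean of -0.61 ± 0.08 (adjusted p = 0.000406). Cdk2, the kinase that cyclin E activates, stood at -0.35 ± 0.07 (adjusted p = 0.00299) and was below 0 on 6 of 6 arrays. Its other feature was listed at 0 on all arrays, as was a feature of Ccne2. Ccne2, which encodes cyclin E2, had -0.63, -0.66 and -0.56 in Cy5 and -0.29, 0.10 and -0.17 in Cy3. Its mean was -0.37 ± 0.09 (adjusted p = 0.00317), and on the Cy3 arrays alone it was -0.12 (adjusted p = 0.412).

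Ccne1, which encodes cyclin E1, had 0.11, -0.46 and -0.29 in Cy5 and -0.12, 0.66 and 0.08 in Cy3. The values lay on both sides of 0 in each orientation, and the mean of -0.00 ± 0.10 did not pass (adjusted p = 0.964; 95% interval -0.14 to 0.13). Within each set the orientations had opposite signs, which cancel in the set mean, so this SD and interval leave out that spread. Cdc25a, the phosphatase that activates Cdk2, ran from -0.26 to 0.11 and did not pass either (mean -0.08 ± 0.16, adjusted p = 0.401; 95% interval -0.25 to 0.08). Its 2 features gave means of -0.08 and -0.09. Chek1, the kinase that restrains replication under stress, had -0.65, -0.85 and -0.74 in Cy5 and -0.92, 0.25 and -0.40 in Cy3. The Cy3 array of set 2 stood apart from the rest, on the other side of 0. Chek1 had the largest SD of the 32 genes (mean -0.55 ± 0.24, adjusted p = 0.00596). Its other feature had a value on 1 array only, of 2.04, and with that value averaged in the gene stood at -0.31 (adjusted p = 0.0697).

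The chromatin and cohesion genes fell in 3 of 3 cases. Esco2, which acetylates cohesin as sister chromatids are made, had -1.69, -1.49 and -1.32 in Cy5 and -1.71, -1.19 and -1.33 in Cy3, and its mean of -1.45 ± 0.21 was the seventh lowest of all genes tested (2.74-fold lower, adjusted p = 9.66e-05). Uhrf1, which brings DNA methyltransferase to replicated DNA, had -0.65, -0.53 and -0.47 in Cy5 and -0.85, -0.91 and -0.60 in Cy3 (mean -0.67 ± 0.12, adjusted p = 0.000472). Hells, a chromatin remodeller that acts in DNA methylation, had -0.71, -0.72 and -0.66 in Cy5 and -0.42, 0.03 and -0.19 in Cy3. All its Cy5 values were below all its Cy3 values, so its mean of -0.45 ± 0.11 (adjusted p = 0.00199) joined -0.70 in Cy5 and -0.20 in Cy3.

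**Figure D3:**
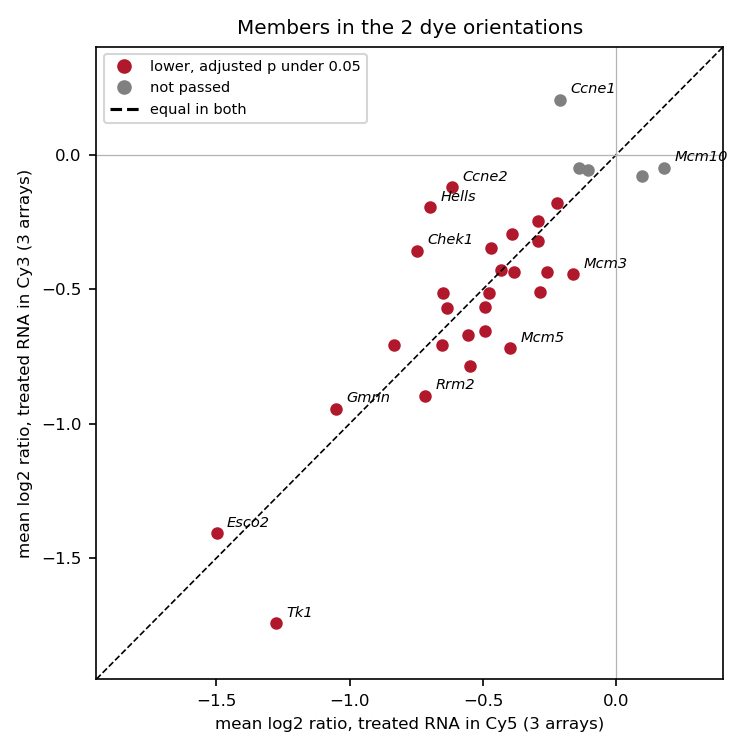
Mean log2 ratio of each of the 32 genes over the 3 arrays with treated RNA in Cy5 (x axis) and over the 3 arrays with treated RNA in Cy3 (y axis), in red where lower at an adjusted p under 0.05 and grey otherwise, with the line of equality dashed. Most points lie below 0 in both orientations, with Hells (-0.70 and -0.20) and Ccne2 (-0.62 and -0.12) above the line and Tk1 (-1.28 and -1.74) and Mcm5 (-0.40 and -0.72) below it.

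No difference between the dye orientations passed the test, which had at most 3 differences per gene. The Cy5 mean was above the Cy3 mean in 16 genes and below it in the other 16. Within sets, the difference of Cy5 minus Cy3 was largest for Hells (-0.50), Ccne2 (-0.50) and Tk1 (0.46). Limma called 0.0% of all 10088 genes for this difference at an adjusted p under 0.05, and 0 of the 32. At an unadjusted p under 0.05 it marked 11 of the 32 genes, or 34.4%, beside 2659 of all genes, or 26.4%. Both lie above the share of 0.05 expected with no dye difference, so dye effects were not shown to be absent. The set means average both orientations, in which an additive dye effect cancels. On the Cy5 arrays alone 26 of the 32 genes passed as lower, and on the Cy3 arrays alone 21 did.

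**Figure D4:**
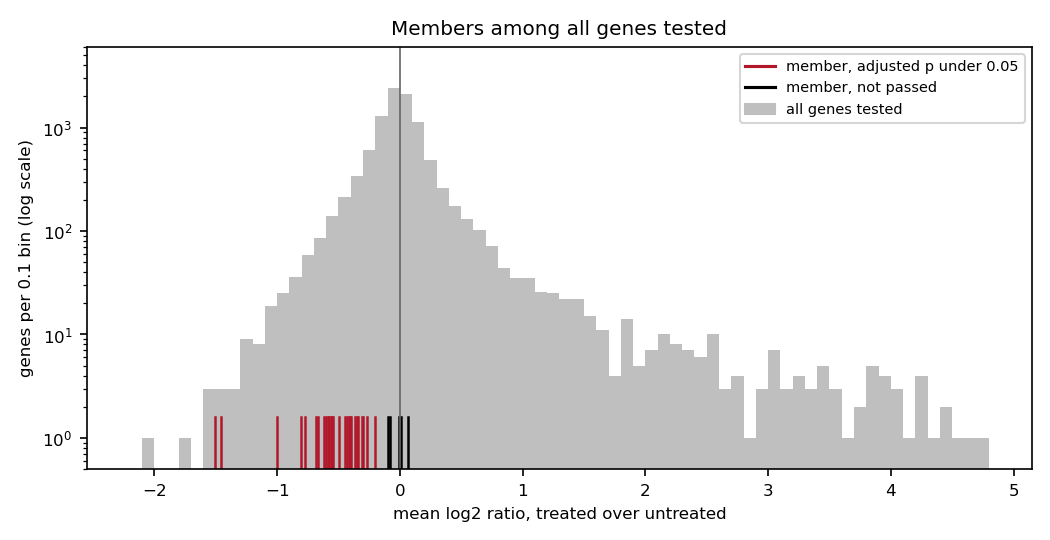
Number of genes (y axis, log scale) by mean log2 ratio of treated over untreated RNA (x axis, bins of 0.1) for all 10088 genes tested, with short lines at the bottom for the 27 genes that passed (red) and the 5 that did not (black). The 27 lie between -1.51 and -0.20, within the left side of the distribution, and the 5 lie between -0.09 and 0.07.

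Other genes of the same processes were read from lists chosen by function, also with earlier results of these data known. Their counts stand beside the 16.8% of all genes that were lower and the 17.4% that were higher. Of 31 further origin and replisome genes tested, 21 fell and 1 rose, at a median of -0.33. The falls were led by Cdc7, the kinase that fires origins (-0.74 ± 0.05, adjusted p = 0.00013), and Gins3, a subunit of the active helicase (-0.69 ± 0.05, adjusted p = 0.000179). The gene that rose was Pole4, a small subunit of polymerase epsilon (1.24 ± 0.13, adjusted p = 5.47e-05), while Pole itself fell.

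Of 19 further nucleotide supply genes, 10 fell (52.6%) and 4 rose (21.1%, near the share of all genes), at a median of -0.18. Dut, which removes dUTP, stood at -0.68 ± 0.07 and the nucleoside transporter gene Slc29a1 at -0.65 ± 0.06. Samhd1, which degrades deoxynucleotides and is interferon-inducible, rose by 1.82 ± 0.05 (adjusted p = 5.12e-06), and Dck, the deoxycytidine kinase, rose by 1.07 ± 0.21 (adjusted p = 0.000309).

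Of 28 further G1/S regulators, 14 fell and 4 rose (14.3%, below the share of all genes), at a median of -0.20. Fbxo5, an inhibitor of the anaphase-promoting complex, stood at -1.29 ± 0.13 and Ccna2, the S-phase cyclin A, at -1.21 ± 0.16. Myc rose by 3.66 ± 0.46 and Cdkn1a, the inhibitor p21 of cyclin-dependent kinases, by 1.02 ± 0.06. Of 12 genes of replication-coupled chromatin, 7 fell and 0 rose in limma (10 and 0 at an unadjusted p under 0.05), with Dnmt1, the maintenance DNA methyltransferase, at -0.77 ± 0.04 and the chromatin assembly gene Chaf1b at -0.65 ± 0.12.

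Genes of G2 and mitosis were lower as well. Of 25 tested, 23 fell and 0 rose in limma (23 and 1 at an unadjusted p under 0.05), and their median of -0.76 stood beside -0.44 for the 32 replication genes. The largest falls among them were those of the centromere gene Cenpf (-1.16 ± 0.02, n = 2 sets) and the spindle motor gene Kif11 (-1.08 ± 0.16, n = 3 sets). The difference between the medians was not tested.

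**Figure D5:**
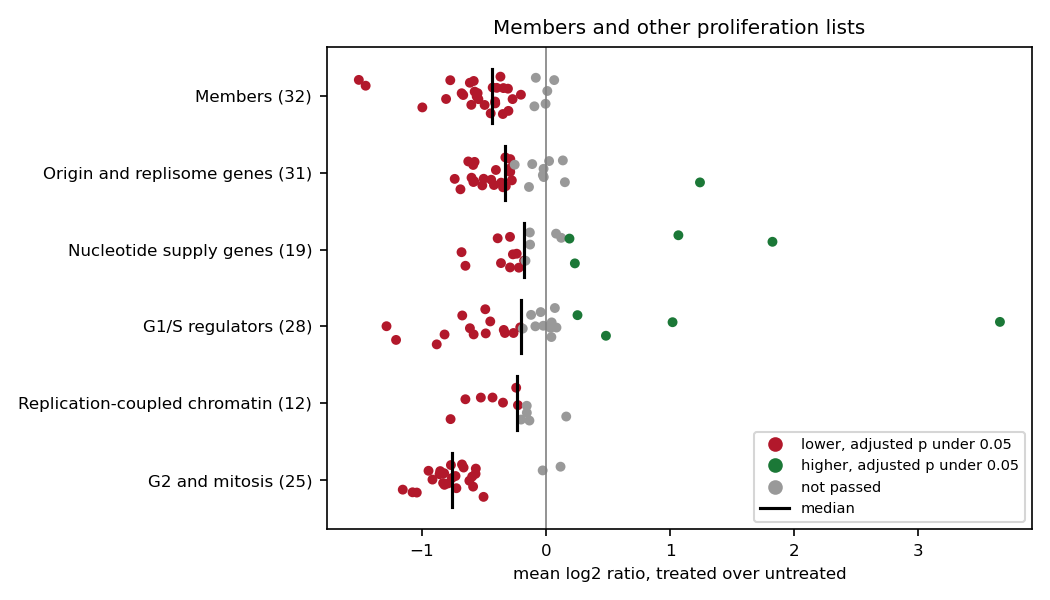
Mean log2 ratio of treated over untreated RNA (x axis) for each gene of the 32 members and of 5 other lists (rows, number of genes tested in brackets, small vertical offsets only to separate points), in red where lower and green where higher at an adjusted p under 0.05, grey otherwise, with the median as a bar. The medians run from -0.76 for G2 and mitosis and -0.44 for the members to -0.18 for further nucleotide supply genes, and green points appear in 3 lists.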

How the data were processed

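The authors deposited log2 ratios, 1 for each feature on each array. The largest value equals log2 of 100, from which the base was inferred. How the arrays were scanned, background-corrected and normalized is not given in the sources used here. Channel intensities were not used, and precision is limited by the number of arrays.

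Of 16281 features, 13738 had 1 gene symbol, 52 several and 2491 none. Ratios of the arrays that had treated RNA in Cy3 were turned in sign, and values of exactly 0 were taken as not measured (8.16% to 13.9% of features per array). A gene was the mean of its features measured on all 6 arrays, or else its most complete feature. Both arrays of a set were averaged, and set means (at least 2) were tested against 0 across all genes with limma 3.58.1 in R 4.3.3, two-sided, p-values being adjusted by Benjamini-Hochberg and called under 0.05. SDs are over set means, in which opposite deviations of the 2 orientations cancel. The cell line is written 264.7 in 42 label fields and 264.4 in 6.

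The members, lists, tests and alternatives were chosen with earlier results of these data known. All members are named. From each other list, the 2 largest falls and 2 largest rises among genes that passed are named. The fit was checked first on simulated data with known changes. Alternatives changed the treatment of zeros and features, the normalization, the dye orientation, the sets used and the block. Promoter windows came from RefSeq (GRCm38.p6).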

Additional observations from a re-analysis of the deposited data

Results flagged for a closer look

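Of the 32 genes, 1 had a sample far from the others by a test of the gap to the nearest value against the range of the 6 arrays (critical value 0.625 for 6 values). Tyms, the thymidylate synthase gene, stood at -0.165 on the set 3 array with treated RNA in Cy5. This was nearer to 0 than its other 5 values, with a gap of 0.682 of the range. The value averaged features that differed there, at -0.45 and 0.12. The feature at -0.45 was nearer to 0, at -0.40, on the set 3 array with treated RNA in Cy3. Chance alone marks about 1 in 20 such groups. On that array 9 of the 32 genes had their highest value of the 6 and 1 had its lowest.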

How the results depend on the processing

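Of the 27 genes that fell, 19 kept direction and call under all 13 gene-level alternatives, and Pcna did so under the 9 that gave it a value. The exceptions were Mcm3, Mcm6, Rfc3, Pola1, Ccne2, Chek1 and Hells, 6 of them when only the Cy3 orientation was used. Members called lower numbered 21 to 27 under these alternatives, and 24 to 26 leaving out 1 set. Leaving out 1 set gave 945 to 1716 genes lower and 1097 to 1685 higher over all genes, the lowest of each without set 3. With each feature tested on its own, 30 of 40 member features were lower and 1 was higher, which was a feature of Cdc45. The median of the members was -0.47 with treated RNA in Cy5 only. Signs turned among genes that had not passed. With treated RNA in Cy3 only, Mcm10 stood at -0.0482, Cdc45 at -0.0782 and Ccne1 at 0.20. Cdc45 was also -0.40 by 1 feature, -0.000624 after quantile normalization, and -0.00796 to 0.0356 leaving out 1 set. Ccne1 was 0.062 by 1 feature and -0.057 to 0.0469 leaving out 1 set, and Cdc25a was -0.153 to 0.000625. The causes were not tested.

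The set number as a replicate block gave 25 of 31 genes lower, with an adjusted p of 0.0598 for Chek1. Same-numbered arrays deviated from their orientation's mean together as deposited (r of 0.256, 0.212 and 0.0999 over features), short of what would show a pairing in every set. The Cy5 array of set 2 and the Cy3 array of set 3 reached 0.112. Deviations shared as deposited become opposite once turned to treated over untreated, and partly cancel in the set means. The spread of set means, on which the p-values rest, can therefore be smaller than that of single arrays. Median centring, scaling and quantile normalization each left 27 genes lower and moved the median of all genes by less than 0.01.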
